A study of Mus musculus with 4 samples.

Results

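The oocyte transcription factors Figla, Nobox, Lhx8, Sohlh1, Taf4b, Pou5f1 and Obox1 were followed in mouse oocytes after hydrostatic pressure, and 5 of the 7 had a probe under their own name on the array. The 4 scanner files were searched for every spot other than a control that carried one of these names. The search gave 7 probes of 41174 (5 of 27962 gene names), each spotted once: 2 for Lhx8, 2 for Taf4b and 1 each for Nobox, Figla and Pou5f1. No spot was named Sohlh1 or Obox1. Sohlh1 was not analysed here, and Obox1 could be followed only through a probe that it shares with Obox2.

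The treated samples were 4 pools of 50 oocytes held under 20 MPa for 60 min at 37 °C. The controls were 4 pools of 50 oocytes held in the same way without the pressure. On each of 4 arrays 1 treated pool, labelled with the red dye Cy5, was hybridised with 1 control pool, labelled with the green dye Cy3, so dye and treatment cannot be told apart. RNA was amplified in successive rounds from 240 pg per pool. Per the series' design text the replicates are biological. The mouse strain, the age of the females and the meiotic stage of the oocytes are not given in the sources used here. The design sets each pressed pool against its control to find transcripts whose level differs.

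Several of these genes belong to the regulatory program that builds the mammalian egg. FIGLA, NOBOX, LHX8 and SOHLH1 are needed for the formation or early growth of ovarian follicles in mice, and they switch on genes for the egg coat, for secreted growth factors and for stored maternal proteins. TAF4B is a gonad-enriched subunit of the general transcription factor TFIID, OBOX1 is an oocyte homeobox protein, and POU5F1 (OCT4) is the POU-domain factor of pluripotent cells that is also made in growing oocytes.

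Because a microarray reports only what its probes can bind, the 5′ 30 bases of the 60-base probes that decide the results are shown here. A level belongs to the probe and not to the gene as a whole. In the files 1 of the 2 Lhx8 probes, the dimmer one, lists a RefSeq transcript of Lhx8, while the brighter one lists other cDNAs described as Lhx8. Positions are given in mouse build mm7, as the files state them. No annotation of that build was used here, so the exon or UTR of each probe is not given.
Lhx8, brighter probe (A_51_P298615), chr3:154214886-154214945, minus strand: gtgaatttgcaactgaaatttattttgcca
Lhx8, dimmer probe (A_52_P508827), chr3:154215364-154215423, minus strand: ccaataagtcatacctaattccttctttca
Nobox (A_52_P291083), chr6:43345260-43345319, minus strand: agaatagaagggtcatgttaactctaaacg
Obox2, also listing Obox1 (A_52_P157893), chr7:13578642-13578701, minus strand: caagtggattcgaatatacccatagaaata
Figla (A_51_P326140), chr6:86095987-86096046, plus strand: aaatagtcatgtataagttgaaaagttcaa
Pou5f1 (A_51_P202340), chr17:33612047-33612107, plus strand: aagtattgagtattcccaacgagaagagta
The whole probes had a GC content of 43.3% and 33.3% for Lhx8 (brighter and dimmer), 38.3% for Nobox, 41.7% for Obox2, 28.3% for Figla and 50% for Pou5f1.

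Replicate 1 stood apart from the other arrays. The 99th percentile of background-subtracted intensity in the treated channel was 2.56 times that in the control channel on replicate 1, against 0.393, 0.247 and 0.304 times on replicates 2 to 4. Across all probes the log2 ratios of replicate 1 correlated negatively with those of replicates 2, 3 and 4 (r = -0.17, -0.15 and -0.19), while the other array pairs gave r of 0.09 to 0.29. These correlations run across probes of the same arrays, and probes are not independent replicates. The labels give the same dyes for all 4 arrays. Whether the channels of replicate 1 were exchanged was not tested, so the sign of its ratios rests on its label, and means without it are given beside the members. Of 43379 spots, 7049 to 11155 passed the scanner's limit of being well above background with treated RNA, and 8309 to 10837 did so with control RNA. The oocyte identity of the pools was checked with 14 oocyte markers, of which 13 had a probe. Of these, 11 passed that limit on at least 1 array with treated RNA and 12 with control RNA. Gdf9, Bmp15, Dazl and Ddx4 were well above background on all 4 arrays in both channels, whereas Nlrp5 was so on none.

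Lhx8 and Nobox were detected in the oocytes, and Figla, Pou5f1 and Taf4b were at or near the level of the negative controls. A probe was kept for testing if it was well above background on at least 3 of the 4 arrays in the same channel, which held for 19.7% of all probes. Both Lhx8 probes and the Nobox probe were kept, 3 of the 7. None of the 3 was called at an adjusted p under 0.05 (limma, Benjamini-Hochberg adjustment over the 8108 kept probes), in a comparison that called 0% of the kept probes in either direction. An unadjusted p under 0.05 was reached by 324 kept probes (4%), of which 0.777% of all kept probes were higher and 3.22% lower in treated pools, and by none of the 3. The lowest adjusted p of any probe was 0.93.

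**Figure D1:**
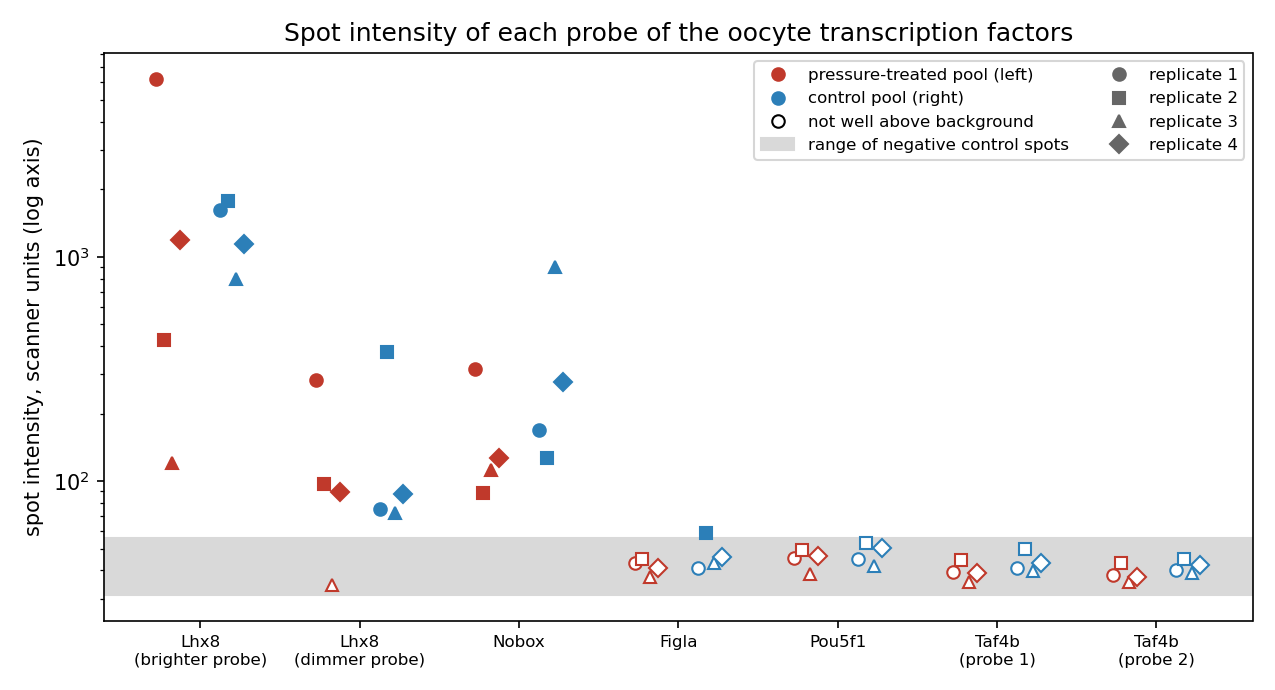
Spot intensity in scanner units (log axis) of each of the 7 probes, with the pressure-treated pools in red on the left and the control pools in blue on the right, 1 symbol shape per replicate. Filled symbols were well above background, open symbols were not, and the grey band is the range of the negative control spots over both channels and all arrays. The brighter Lhx8 probe spans 120 to 6209 in treated pools and 797 to 1769 in control pools, while Figla, Pou5f1 and Taf4b lie in or at the edge of the band.

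Lhx8, a LIM-homeodomain factor required in mice for oocytes to pass from the primordial to the growing follicle, gave the brightest signals of these genes' own probes. Its brighter probe had spot intensities of 6209, 424, 120 and 1194 in the treated pools of replicates 1 to 4, against 1623, 1769, 797 and 1144 in the control pools. After normalization within each array the intensities were 3934, 731, 244 and 2025 in treated pools, against 2593, 1220, 469 and 693 in control pools. The treated pool was the brighter channel on replicates 1 and 4 and the dimmer channel on replicates 2 and 3, so the groups overlapped.

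The log2 ratio of treated over control for this probe was 0.60, -0.74, -0.94 and 1.55 on replicates 1 to 4. The mean was 0.12 ± 1.17 (SD, n = 4), with a 95% interval of -1.03 to 1.27, which corresponds to between 0.489 and 2.41 times the control level (limma, adjusted p = 0.98). No difference in Lhx8 beyond the spread between arrays was detected, and the interval leaves room for a change in either direction. The sign of the mean was not stable: it was -0.47 when each array was only centred on its median and -0.46 with arrays weighted by their quality, and it ran from -0.36 without replicate 4 to 0.47 without replicate 3. Without replicate 1 it was -0.04. Centring on array medians also put the median of all kept probes at -0.32. In RNA from pools, fewer oocytes with a transcript and less RNA per oocyte cannot be told apart.

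The dimmer Lhx8 probe showed the same order of the channels at much lower intensity. It had 282, 97.4, 34.6 and 89.7 in treated pools, against 75.3, 375, 72.5 and 87.9 in control pools. The treated channel of replicate 3 was not well above background, while the other 7 measurements were. The log2 ratios were 0.90, -0.49, -0.49 and 0.70, with a mean of 0.16 ± 0.75 (SD, n = 4, 95% interval -0.64 to 0.95, limma adjusted p = 0.96). Without replicate 1 the mean was -0.09, without replicate 4 it was -0.03, and with the scanner's processed signals it was -0.49.

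Both Lhx8 probes agreed in sign on all 4 arrays, above 0 on replicates 1 and 4 and below 0 on replicates 2 and 3. The brighter probe minus the dimmer probe gave log2 differences of -0.30, -0.25, -0.45 and 0.84, a root mean square of 0.52. On replicate 3 the treated spot of the dimmer probe was at the floor (34.6, against a local background of 36). With processed signals the ratios there were -0.95 for the brighter and -3.60 for the dimmer probe. With plain background subtraction those of replicate 2 were -0.79 and -0.76. The differences on replicates 2 and 3, and the root mean square, thus depend on the scaling. By comparison, repeated spots of a probe on the same array had a median SD of 0.053 to 0.097, measured on 59 kept probes with several spots. The same 59 probes had a median SD of 0.56 between arrays, and all kept probes 0.52. The brighter Lhx8 probe varied between arrays more than 91.6% of the kept probes and the dimmer probe more than 71.9%. These ranks are on the reported scaling and over kept probes of any brightness, and ratios of dim probes are drawn toward 0. With processed signals the SD of the dimmer Lhx8 probe was 2.37, in place of 0.75.

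Nobox, a homeobox factor that in mice activates growth factor genes such as Gdf9, was detected in every pool. Its spot intensities were 316, 88.6, 112 and 126 in treated pools, against 168, 126, 900 and 278 in control pools. The control pool of replicate 3 was the brightest of the 8. Before normalization the treated pool was brighter than its control on replicate 1 and dimmer on replicates 2 to 4, and the groups overlapped. After normalization the intensities were 240, 200, 226 and 204 in treated pools, against 252, 187, 526 and 200 in control pools.

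The log2 ratios of Nobox were -0.07, 0.09, -1.22 and 0.03, with replicate 3 far below 0 and the other arrays near it. Centred on the array medians instead, they were 0.83, -0.04, -2.78 and -1.01, and with the scanner's processed signals they were -0.31, 0.42, -1.29 and 0.15, so replicate 3 was the lowest under each of these scalings and the values of the other arrays depended on the scaling. The mean was -0.29 ± 0.62 (SD, n = 4, 95% interval -0.98 to 0.40), or between 0.506 and 1.32 times the control level (limma, adjusted p = 0.93). Without replicate 3 the mean was 0.02, and without replicate 1 it was -0.37. With arrays centred on their median it was -0.75, against a median of -0.32 over all kept probes. On the reported scaling its SD was larger than that of 61.0% of the kept probes, dim ones included. No member probe had the same sign on all 4 arrays, which held for 12.2% of the 8052 kept probes with a value on each array (3.04% above 0 and 9.18% below 0).

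**Figure D2:**
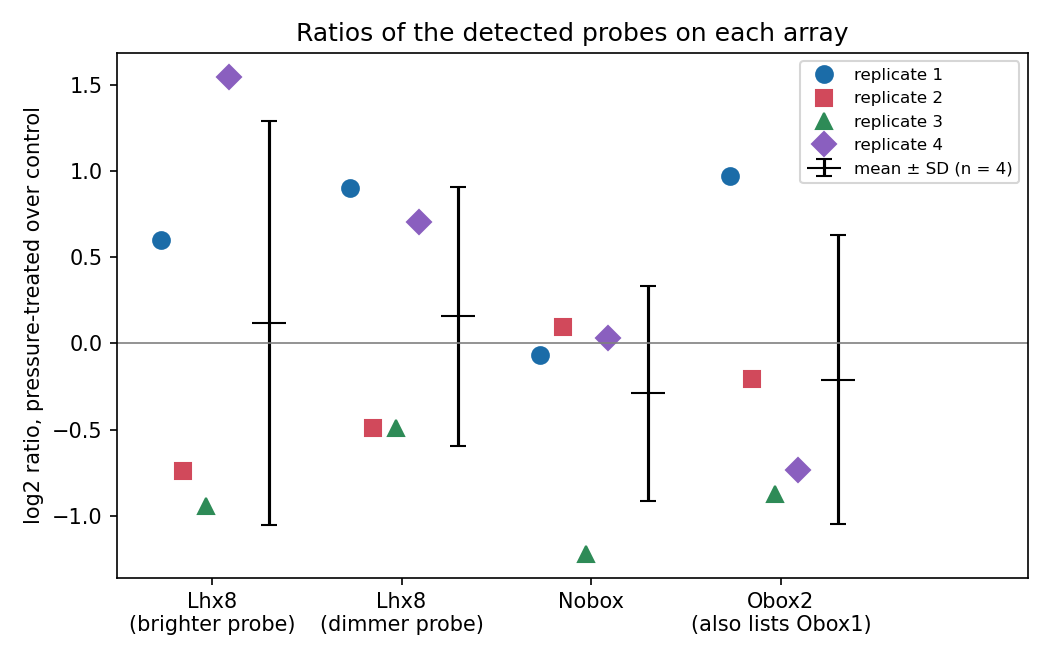
Log2 ratio of pressure-treated over control on each of the 4 arrays for the detected probes, with the mean and SD (n = 4) as a bar beside them. Both Lhx8 probes lie above 0 on replicates 1 and 4 and below 0 on replicates 2 and 3, Nobox lies far from 0 on replicate 3 (-1.22), and the Obox2 probe is above 0 on replicate 1 alone (0.97).

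Obox1 shares its probe with Obox2, since the probe named Obox2 lists the transcripts of both oocyte homeobox genes, and their contributions cannot be told apart. The probe was well above background in all 8 measurements. Its spot intensities were 635, 53.0, 87.3 and 98.3 in treated pools, against 152, 145, 541 and 387 in control pools. The treated pool was thus brighter on replicate 1 and dimmer on the other 3 arrays. The log2 ratios were 0.97, -0.21, -0.87 and -0.73, with a mean of -0.21 ± 0.84 (SD, n = 4, 95% interval -1.08 to 0.65, limma adjusted p = 0.95). Without replicate 1 the mean was -0.60, and without replicate 3 it was 0.01.

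Figla, the basic helix-loop-helix activator of the zona pellucida genes, was well above background in 1 of 8 measurements, the control pool of replicate 2. Its spot intensities were 43.4, 44.9, 37.3 and 41.0 in treated pools, against 41.2, 58.9, 43.0 and 45.8 in control pools. The 153 negative control spots of each array, which are designed to match no transcript, had medians of 38.9, 42.7, 37.0 and 41.2 in the treated channel, against 40.4, 46.1, 38.4 and 43.0 in the control channel. The Figla spot was brighter than 153, 122, 84 and 70 of these spots in the treated channel of replicates 1 to 4, and than 99, 153, 152 and 139 in the control channel. It therefore stood above nearly all negative spots on replicates 2 and 3 in the control channel and on replicate 1 in the treated channel. Its log2 ratios of 0.07, -0.06, -0.04 and -0.17 compare signals near the floor, so no fold is given and no test was made.

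Pou5f1 was not well above background in any measurement, although it was among the brighter of the spots at that level. Its intensities were 45.3, 49.2, 38.5 and 46.4 in treated pools, against 45.0, 52.8, 41.7 and 50.2 in control pools. They exceeded 153, 148, 115 and 149 of the 153 negative spots in the treated channel, and 152, 151, 147 and 152 in the control channel. The probe thus outshone most negative controls without passing the scanner's limit, which shows neither presence nor absence of the transcript. Both channels were below that limit, so no fold is given.

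Taf4b was not well above background on either of its probes, which lie at chr18:15133081-15146118 and chr18:15249402-15249461. The intensities ranged from 35.4 to 44.4 in treated pools, against 38.9 to 49.6 in control pools, and the groups overlapped. Both Taf4b probes list predicted transcript models, and neither lists a transcript that the RefSeq table used here gives for Taf4b. Their low signal is therefore a statement about these probes and not about the gene.

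The small ratios of dim probes on replicate 2 have to be read with the background correction in view. After it, the 5th percentile of intensity on replicate 2 was 128 for treated RNA and 192 for control RNA, whereas on the other arrays it was 52.7 to 54.5 for treated RNA and 53.4 to 53.9 for control RNA. Ratios of dim spots on replicate 2 were therefore drawn toward 0. With plain subtraction of the local background in its place, the replicate 2 log2 ratio was -0.79 for the brighter Lhx8 probe, -0.76 for the dimmer one, 0.20 for Nobox and -0.59 for the Obox2 probe.

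The probes most like each member were found by the root mean square difference of log2 ratios over the 4 arrays, among 7155 or 7156 named kept probes of other genes. For the brighter Lhx8 probe these were Socs6, a suppressor of cytokine signalling, and Tra2b, a splicing regulator, at 0.18 and 0.19. Socs6 had log2 ratios of 0.29, -0.93, -0.99 and 1.52, and Tra2b had 0.54, -0.54, -0.63 and 1.46. For the dimmer Lhx8 probe they were Pnrc1, a nuclear receptor coactivator (0.93, -0.42, -0.57 and 0.50), and Rps6ka6, a ribosomal S6 kinase (0.76, -0.36, -0.56 and 0.83), both at 0.12. For Nobox they were Strip2 (-0.11, 0.07, -1.34 and -0.09), at 0.089, and Eola1 (-0.11, -0.14, -1.19 and -0.02), at 0.12. The up-down-down-up order of Lhx8 and the single low value of Nobox on replicate 3 recur in these genes because they were picked for that likeness. How many kept probes share these patterns was not counted. With 4 points per probe, likeness of this kind is a description only.

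Related regulators, 20 genes that are paralogues, partners or fellow pluripotency factors, had 10 members kept. None of the 10 was called and none had an unadjusted p under 0.05, against 293 of all 6917 genes tested (each represented by its brightest kept probe). The mean was above 0 for 6 and below 0 for 4, with a median log2 ratio of 0.02, against 3289 above, 3628 below and a median of -0.02 over all genes. Klf5 was kept through the treated channel alone, which favours a ratio above 0. Obox3 and Obox5 were kept through the control channel alone, which favours ratios below 0. The homeobox gene Obox6, the pluripotency genes Nanog and Zfp42, and Tbpl2 were well above background on no array in either channel. Sohlh2, the partner of SOHLH1, reached that limit in 2 treated and 2 control pools, and was not tested.

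Among the paralogues that were tested, Obox3 had log2 ratios of 0.09, -0.26, 0.03 and -0.41 (mean -0.14 ± 0.24, SD, n = 4). Obox5 had 0.48, -0.19, -0.01 and -0.15, a mean of 0.03 ± 0.31. Both probes were well above background on 4 arrays in the control channel but on 2 in the treated channel. Part of their ratios thus compares signals near the floor, where ratios are drawn toward 0. Taf4, the widely expressed paralogue of Taf4b, had 1.1, 0.10, -1.18 and -3.28, a mean of -0.81 ± 1.89 that was 0.01 without replicate 4. Tcf12, a helix-loop-helix partner, had 0.52, -0.12, 0.78 and -2.82 on its brightest probe, a mean of -0.41 ± 1.65 that was 0.39 without replicate 4. A second kept Tcf12 probe had 0.08, 0.20, 0.27 and -0.37, a mean of 0.04 ± 0.29. That probe was well above background on 2 treated and 3 control arrays, so the 2 probes differed in the sign of the mean. In each of these families the spread between arrays was larger than the mean.

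Sall4, a zinc-finger factor shared by oocytes and pluripotent cells, had the highest mean of this list, 1.40 ± 2.06 (SD, n = 4, limma adjusted p = 0.93). Its log2 ratios were -1.53, 1.45, 2.60 and 3.07, so treated pools were higher on replicates 2 to 4 and lower on replicate 1, the array that stood apart. The mean was 2.37 without replicate 1 and 0.84 without replicate 4. With arrays centred on their median it was 0.57, against a median of -0.32 over all kept probes. A second kept Sall4 probe gave 0.64, -0.04, -0.12 and 0.66, with a mean of 0.28, so probes of this gene disagreed on 3 of the 4 arrays. Klf5, a Krüppel-like factor, was above 0 on all 4 arrays, a pattern shared by 3.04% of kept probes. Its treated channel was well above background on 3 arrays and its control channel on none. The probe was thus kept through the treated channel alone, which favours ratios above 0. Its signs therefore carry no support for a change, and no fold is given (limma adjusted p = 0.93). The spot intensities were 48.4, 52.4, 38.8 and 52.6 in treated pools, against 42.3, 47.5, 37.8 and 43.7 in control pools.

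**Figure D3:**
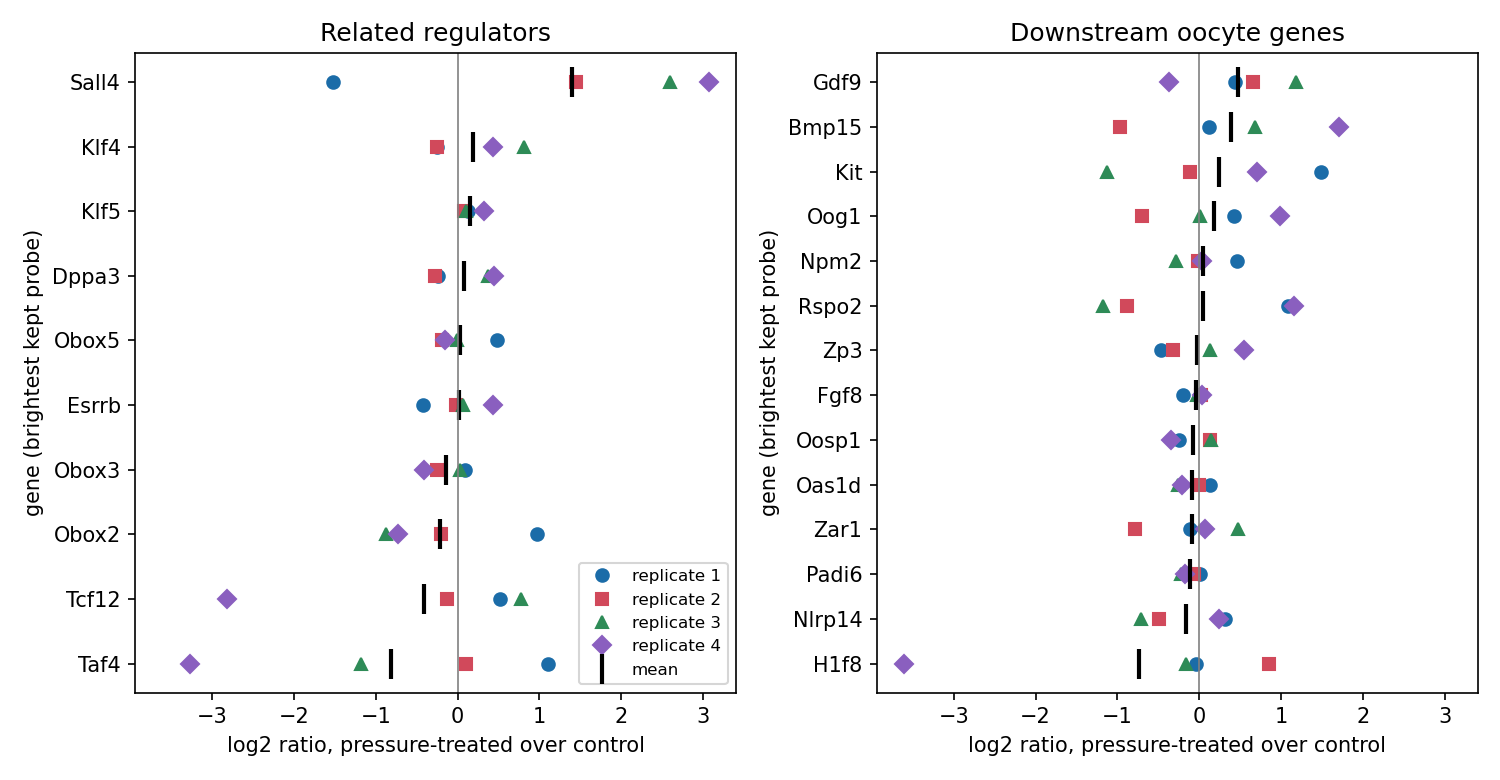
Log2 ratio of pressure-treated over control for the kept related regulators (left) and the kept downstream oocyte genes (right), with 1 symbol per replicate and the mean as a vertical bar. Means run from -0.81 (Taf4) to 1.40 (Sall4) on the left and from -0.74 (H1f8) to 0.48 (Gdf9) on the right, and the symbols of every gene but Klf5 lie on both sides of 0. Klf5 was kept through the treated channel alone, which favours ratios above 0.

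Downstream oocyte genes, 18 genes of the egg program in which several of these factors act, had 17 genes with a probe and 14 kept. None was called or had an unadjusted p under 0.05, with 6 means above 0, 8 below and a median log2 ratio of -0.03. Some of these genes were kept through the control channel alone, which favours ratios below 0. Gdf9 and Bmp15, the oocyte-secreted growth factors, were bright in every pool. Gdf9 had log2 ratios of 0.44, 0.66, 1.18 and -0.37 (mean 0.48 ± 0.64, SD, n = 4), and Bmp15 had 0.13, -0.97, 0.68 and 1.71 (mean 0.39 ± 1.12). Both means were below 0 when arrays were centred on their median, at -0.37 and -0.38, where the median of all kept probes was itself -0.32. H1f8, the oocyte linker histone, had -0.04, 0.85, -0.17 and -3.60, a mean of -0.74 ± 1.96 that was 0.22 without replicate 4.

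The zona pellucida targets of FIGLA were measured unevenly. Zp3 was detected in every pool, with log2 ratios of -0.46, -0.32, 0.13 and 0.54 and a mean of -0.03 ± 0.46 on its brightest probe. Zp2 reached the detection limit in 1 control pool and in no treated pool, and Zp1 had no probe by name.

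Cell types other than oocytes were looked for with marker lists. Of 16 cumulus and granulosa markers, 5 passed the detection limit in at least 1 treated pool and 10 in at least 1 control pool. Detection counts of this kind follow the channels as a whole. Over all spots the control channel passed more often on replicates 2 to 4 (9505 to 10837 spots, against 7049 to 8146 for treated RNA). On replicate 1 it passed less often (8309 against 11155). Tnfaip6, a matrix protein of the expanding cumulus, was detected in every pool (spot intensities of 423 to 4959 over both channels), and Cyp19a1, Ptgs2, Nr5a2, Inha and Hsd17b1 were also kept. Foxl2, Fshr, Amh, Kitl, Lhcgr and Fst were detected in no pool. The median log2 ratio of the 6 kept markers was -0.12. Hsd17b1 (0 treated and 3 control arrays above background) and Inha (2 and 4) were kept through the control channel alone, which favours ratios below 0. Without the filter on dim probes the median of the 16 genes was -0.05. The summed background-subtracted intensity of the whole list (22 probes) ranged from 663 to 2662 in treated pools (median 1069), against 990 to 6062 in control pools (median 3339). Tnfaip6 alone reached 2158 in treated and 4959 in control pools, so this sum leans on 1 probe. Like the sums below, it was not normalized between channels, whose balance differed between arrays. The medians of the sums are over pools and are not paired by array. For the oocyte markers the sum ranged from 34613 to 234446 in treated pools (median 68860), against 72414 to 234429 in control pools (median 140517). Of 7 blood and immune markers 6 had a probe, and 5 passed detection in at least 1 treated pool and 3 in at least 1 control pool. Srgn, a granule proteoglycan, was bright in every pool, with log2 ratios of -0.55, -0.38, -0.53 and -0.61 (mean -0.52 ± 0.096, SD, n = 4, limma adjusted p = 0.93), and it was the member of that list with an unadjusted p under 0.05. The blood sum ranged from 646 to 5614 in treated pools (median 1227), against 2204 to 8063 in control pools (median 3267). Srgn alone reached spot intensities of 5554 in treated and 7833 in control pools, so the blood sum is close to that of 1 gene. Of 10 oviduct, endothelium and stroma markers 7 passed detection in at least 1 treated pool and 6 in at least 1 control pool, with 3 kept. Their sum ranged from 329 to 1462 in treated pools (median 1061), against 879 to 2511 in control pools (median 1157). The part of these differences in the ratios of Lhx8, Nobox and Obox2 was not tested.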

How the data were processed

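The deposited scanner files hold mean spot intensity and median local background intensity for both channels of 4 two-colour arrays, made per the submitters' processing notes with Agilent Feature Extraction 9.5.1.1. Processed signals and the log10 of their red to green ratio are deposited beside them, per the file headers. The authors' deposited value table held the same log10 values (difference at most 5e-10, median 0 per array). From the deposited intensities, background was corrected by normexp (offset 50) and loess was run within arrays, giving control spots a weight of 0 (limma 3.58.1, R 4.3.3). Outlier spots were dropped, no spot was saturated, and spots of a probe were averaged. Of 41174 probes 8108 were kept. Log2 ratios were tested against 0 with lmFit and eBayes, after trial on simulated data. An exact test on 4 ratios cannot give a two-sided p below 0.125. Gene names were updated by accession, symbol or synonym through a RefSeq table of GRCm38.p6, used for names only.

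The members and lists were chosen with earlier results of these data known. The genes named are the members, the 2 nearest probes of each kept member probe, the 3 genes of each regulatory list with the smallest p, and the kept paralogues and partners; Zp3, Zp2, single markers and undetected genes were named after their values were seen. Alternatives covered background, normalization, filters, eBayes settings, array weights, the deposited value table and the omission of each array. Plain background subtraction was added after seeing the data. The 4 arrays share 1 slide and 1 scan, which leaves no batch to block. The number of arrays limits the precision.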

Additional observations from a re-analysis of the deposited data

Results flagged for a closer look

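In 25 sets of 4 array values, Dixon's test looked for a single value far from the rest. It sets the gap to the nearest other array against the whole range. Such a value was found in 4 sets, where chance gives about 1 in 20 for independent sets. These sets were not independent, since some probes were picked for likeness to the members, so the count is not read as an excess. Nobox had a log2 ratio of -1.22 on replicate 3, against -0.07 to 0.09 on the other arrays. Strip2 had -1.34 on replicate 3, against -0.11 to 0.07, and Eola1 had -1.19 on replicate 3, against -0.14 to -0.02. Strip2 and Eola1 were picked for their likeness to Nobox, so their values are no separate instances. On replicate 3 the Nobox spot had 112 in the treated pool, against 900 in the control pool, both well above background. These flags are on the reported scaling. With processed signals Nobox had -0.31, 0.42, -1.29 and 0.15, and centred on array medians 0.83, -0.04, -2.78 and -1.01. On both of these the other arrays spread more widely, so the flag of Nobox depends on the scaling. The median of the related regulators was -0.16 on replicate 2, against 0.08 to 0.11 on the other arrays.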

How the results depend on the processing

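No probe was called under any of 17 alternatives, whose lowest adjusted p ran from 0.19 (without replicate 1) to 0.999. The number of probes at an unadjusted p under 0.05 was 324 of 8108 as reported, 586 with the scanner's processed signals, 585 with the authors' values, 158 with median centring, 71 with trend and robust eBayes, 952 with array weights, 150 of 4295 with both channels required on 4 arrays, 1054 of 41174 without the filter, and 828 and 152 without replicates 1 and 3. The adjusted p stayed between 0.655 and 0.999 for both Lhx8 probes and Nobox under every alternative. The mean log2 ratio of the brighter Lhx8 probe was below 0 with median centring (-0.47), ratios scaled between arrays (-0.41) and array weights (-0.46), and ran from -0.36 to 0.47 when each replicate was left out. The dimmer Lhx8 probe gave -0.49 with processed signals and with the authors' values, -0.21 scaled, -0.27 with array weights, and -0.092 to 0.37 with a replicate left out. On its low replicate 3 the processed signals gave -3.60 in place of -0.49. Nobox ran from -0.42 to 0.019 with a replicate left out, and was -0.75 with median centring. The median of all kept probes was -0.32 with median centring, against -0.02 as reported, and means under it are to be read against that shift. Among the other named genes, Gdf9 was -0.044 with processed signals and the authors' values and -0.37 centred. Bmp15 was -0.38 centred, -0.35 scaled, -0.27 with array weights and -0.056 to 0.84 with a replicate left out. H1f8 was 0.059 scaled, 0.14 with array weights and -1.27 to 0.22 with a replicate left out. Obox5 was -0.038 without background subtraction, -0.068 with plain subtraction, -0.69 with processed signals and the authors' values, -0.10 scaled and with array weights, and -0.12 to 0.10 with a replicate left out. Klf5 was 2.19 and Obox3 -1.64 with processed signals and the authors' values, against 0.16 and -0.14 as reported. The control channel of Klf5 was well above background on 0 arrays, and the treated channels of Obox3 and Obox5 on 2 each. The means of these 3 genes therefore rest in part on signals at the floor, and no fold is read from them. Sall4 was 0.74 with processed signals, 0.57 centred and 0.84 to 2.37 with a replicate left out, against 1.40 as reported. Taf4 ran from -1.45 to 0.0083, Tcf12 from -0.81 to 0.39 and Obox2 from -0.60 to 0.011 with a replicate left out. The median of the related regulators was -0.61 with processed signals and -0.37 centred, and that of the downstream genes -0.21 and -0.55. Causes of these shifts were not tested. The dimmer Lhx8 probe has no value where both channels must pass on 4 arrays or where only the brightest probe of a gene is kept. The reported test is itself paired, since each ratio sets the treated pool of an array against the control pool of the same array, and no further replicate block could be added. Figla, Pou5f1 and Taf4b failed the scanner's detection limit on nearly all arrays, so their changes could not be measured.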

Other observations

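Rspo2, a secreted Wnt-pathway activator of the oocyte, and Kit, the receptor for the granulosa KIT ligand, are named here because their order across arrays resembled that of Lhx8, which was noticed after their values were seen. Rspo2 had log2 ratios of 1.09, -0.88, -1.18 and 1.15 (mean 0.05 ± 1.25, SD, n = 4). Kit had 1.49, -0.12, -1.12 and 0.71 (mean 0.24 ± 1.12). Dppa3, the maternal factor Stella, was bright in every pool and had -0.24, -0.28, 0.37 and 0.44 (mean 0.07 ± 0.39).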
